A study of Caenorhabditis elegans with 2 samples.

Results

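Binding of an eGFP fusion of EGL-5 was measured at the tubulin genes of Caenorhabditis elegans by chromatin immunoprecipitation followed by sequencing (ChIP-seq). Tubulin genes were taken by name: the alpha-tubulin genes tba-1, tba-2, tba-4, tba-5, tba-6 and tba-9, the beta-tubulin genes tbb-1, tbb-2 and tbb-4, and the gamma-tubulin gene tbg-1. These are 10 of 19973 protein-coding genes on the nuclear chromosomes. A peak was given to a gene when its summit lay in the gene body or up to 1000 bp upstream of any annotated transcript start. The list was selected on gene names with the peaks and scores of these data already known, so counts and scores at its genes are descriptions and carry no test.

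The 2 samples were biological replicates 1 and 2 of 1 group of whole L3 larvae with both sexes pooled. All worms were of strain OP54, which has the unc-119(ed3) mutation on chromosome III and the integrated array wgIs54 for egl-5. Where the array lies in the genome was not examined. The labels describe ChIP-seq against eGFP-egl-5 and name egl-5 as the antibody target. They also point to a possible control experiment, which was not analysed here, so no control group enters the values. Binding in few cells and weak binding in many cells cannot be told apart in whole larvae.

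Tubulins are the building blocks of microtubules. An alpha and a beta subunit form a dimer that polymerises into the hollow filaments used for cell division, transport in axons and the axonemes of cilia, and gamma-tubulin sits in complexes that start new filaments, at centrosomes above all. In worms tba-1, tba-2, tbb-1 and tbb-2 are the broadly used isotypes of dividing cells, whereas tba-5, tba-6, tba-9 and tbb-4 are known from ciliated sensory neurons. EGL-5 is a posterior Hox protein, a homeodomain transcription factor that patterns the tail region.

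The submitters deposited peak lists on the ce11 build, whose chromosomes match WBcel235. The list that the submitters name as thresholded by the irreproducible discovery rate (IDR), a procedure that compares peak ranks between replicates, held 2570 peaks, with scores between 30.8 and 510 and a median of 41.0. They were exactly the 2570 highest of 28619 pooled peaks, and the ranks of single peaks could differ widely between replicates. The pooled peaks that remain are called weaker pooled peaks, and that list also holds background. Each replicate list had 30000 peaks. Scores are the authors' own and were compared only within a list. The lists give no read counts, so the depth behind a peak is unknown and its absence is not evidence of no binding. Replicate numbers follow the ce11 lists. Scores at equal rank in replicate 1 on ce11 differed by a median of 0.218% from replicate 2 on ce10 and by 39.3% from replicate 1 on ce10, so the number of each biological sample could not be settled.

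EGL-5 peaks of the IDR list stood at 3 of the 10 tubulin genes: the beta-tubulin gene tbb-1, the alpha-tubulin gene tba-2 and the gamma-tubulin gene tbg-1. Among all protein-coding genes 10.6% had such a peak by the same rule. The genes known from ciliated neurons, tba-5, tba-6, tba-9 and tbb-4, had none, nor did tba-1, tba-4 and tbb-2. Groups this small cannot be set apart from the share of all protein-coding genes, so no contrast between isotypes is drawn. Of the ciliated-neuron genes, tba-9 did have a weaker pooled peak with a score of 26.4. In all, 4 IDR peaks were assigned, since tba-2 held 2. No peak was shared by 2 tubulin genes, and the 3 genes with a peak lie on chromosomes I and III.

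**Figure D1:**
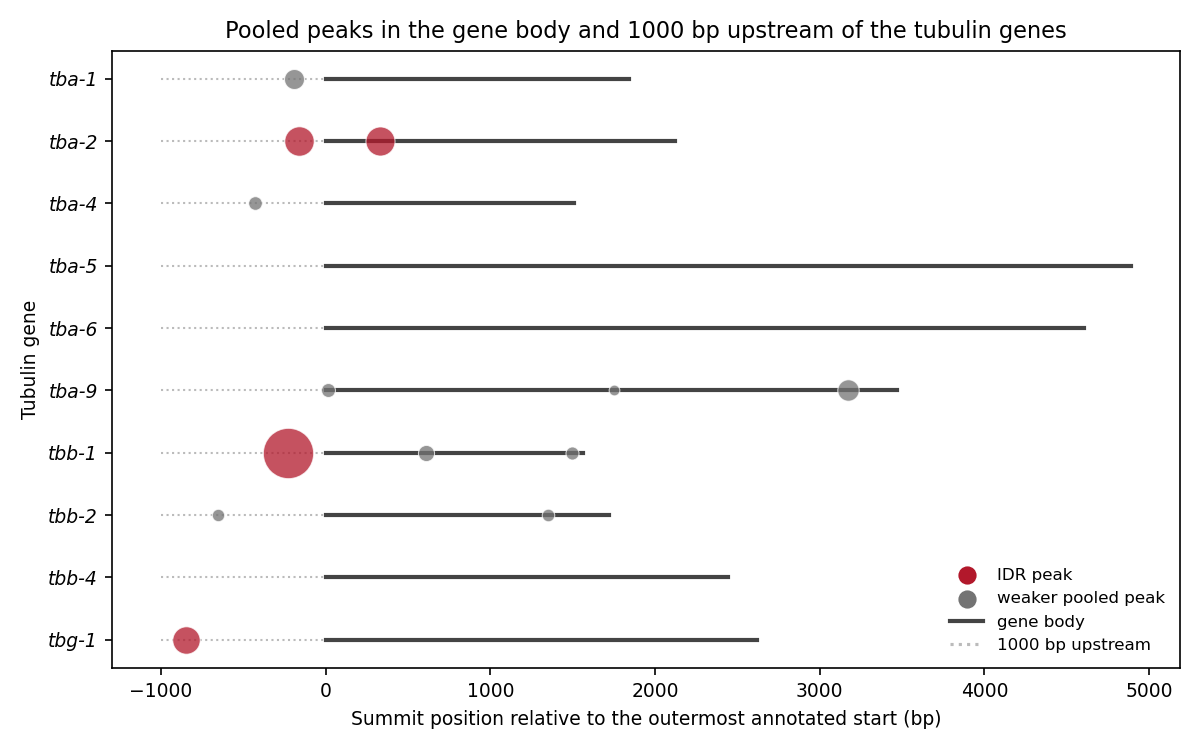
Position of every pooled peak summit in the windows of the 10 tubulin genes, in bp from the outermost annotated start (x axis), with 1 gene per line and circle area proportional to the pooled score. Red circles are IDR peaks and grey circles weaker pooled peaks, and the circle at tbb-1, at -226 bp with a score of 146, is the largest.

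The highest tubulin peak was that of tbb-1 (WBGene00006536), at 10740868 to 10742432 on the minus strand of chromosome III. Its peak, at 10742476 to 10742839, had a score of 146 and ranked 11 of the 2570 IDR peaks. The summit lay in intergenic sequence at -226 bp from the tbb-1 start. On the other side stands rib-2 (WBGene00004361), a heparan sulfate glycosyltransferase gene on the plus strand, at 10742810 to 10746675. The starts of the divergent pair are 378 bp apart, and the summit lay nearer to rib-2, at -152 bp. The peak therefore cannot be given to tbb-1 alone.

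The 300 bases around this summit are shown because they hold most of the shared promoter of the pair. They are chrIII:10742508-10742807 of ce11 on the plus strand, with the tbb-1 side first. Capitals mark the one match to the posterior Hox hexamer TTTATG or its reverse complement CATAAA, which starts 124 bp from the summit toward rib-2.
tbb-1 to rib-2: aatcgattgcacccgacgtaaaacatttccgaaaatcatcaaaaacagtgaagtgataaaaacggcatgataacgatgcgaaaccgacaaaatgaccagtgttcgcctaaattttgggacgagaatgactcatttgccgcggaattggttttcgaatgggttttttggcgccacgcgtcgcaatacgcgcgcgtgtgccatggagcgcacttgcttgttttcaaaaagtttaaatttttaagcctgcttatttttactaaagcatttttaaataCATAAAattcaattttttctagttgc

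Both replicates placed the tbb-1 peak near the top of their own lists. In replicate 1 the overlapping peak scored 62.2 and ranked 13 of 30000. In replicate 2 it scored 80.7 and ranked 16. Each replicate summit lay within 9 bp of the pooled one, and the ranks were close. Among IDR peaks with a summit within 1000 bp upstream of a protein-coding start, it ranked 3 of 1353. Just above it came the peaks of nspc-17 (155) and of dld-1 (146), a dihydrolipoamide dehydrogenase gene. Just below came the peak shared by rps-28 and Y41D4B.4 (145) and that shared by rpl-12 and lin-54 (133). In replicate 1 these 4 peaks ranked 9, 32, 30 and 45, and in replicate 2 they ranked 10, 7, 8 and 12. Weaker pooled peaks lay within the tbb-1 gene, with scores of 15.0 and 9.83, at 608 and 1499 bp from the start. The first, also in the rib-2 window, was matched in replicate 2 only (12.5). Near the second, also in the K01G5.8 window, replicate 1 alone had a peak (6.40).

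**Figure D2:**
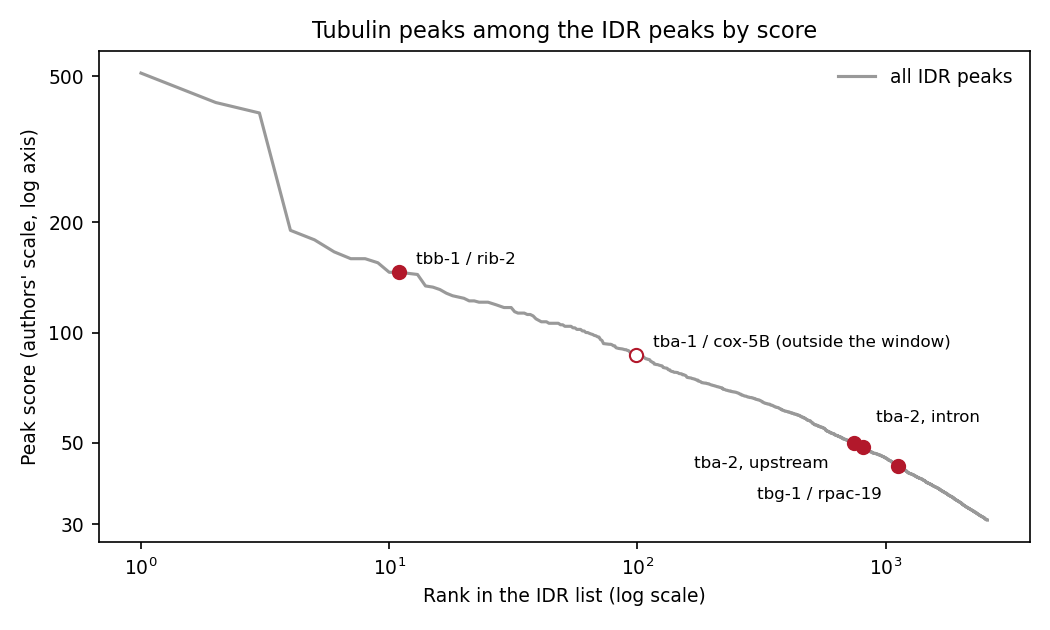
Score of each of the 2570 IDR peaks (y axis, authors' scale, log) against its rank (x axis, log), with the 4 tubulin peaks as filled circles. The open circle is the peak near tba-1 that lay outside the window, and tbb-1 stands at rank 11 while the other tubulin peaks lie between ranks 746 and 1126.

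The alpha-tubulin gene tba-2 (WBGene00006529), at 12964674 to 12966795 on the minus strand of chromosome I, had a pair of IDR peaks. The first, at 12966773 to 12967136, scored 49.9 and had its summit in intergenic sequence at -160 bp from the outermost start. The second, at 12966284 to 12966647, scored 48.7. Its summit lay in an intron, 329 bp into the gene by the outermost start and at -195 bp from the second annotated start. Neither summit fell in the window of another protein-coding gene. The next gene upstream, pbs-2, a proteasome subunit gene on the same strand, ends 421 bp from tba-2.

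The replicates ordered the tba-2 peaks differently. In replicate 1 the upstream peak scored 19.3 and the intronic peak 14.1, at ranks 1025 and 2091. In replicate 2 they scored 33.4 and 38.8, at ranks 628 and 360. Each was present in each replicate and among the 2570 highest there, and which of them is the stronger is not settled by these lists. Among protein-coding genes with an IDR peak, 190 (8.97%) had 2 or more.

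For gamma-tubulin, tbg-1 (WBGene00006540) lies at 9626536 to 9629154 on the minus strand of chromosome III. Its peak, at 9629817 to 9630180, scored 43.3 and ranked 1126. The summit was at -845 bp from tbg-1, beyond the whole of rpac-19 (WBGene00010230), a gene for a subunit shared by RNA polymerases I and III. Both genes are on the same strand with 92 bp between them, and the summit lay at -114 bp from the rpac-19 start. This peak is thus closer to rpac-19, and it enters the tbg-1 window only through the length of that window. The next gene upstream of rpac-19, ubc-7, is on the same strand too. Whether these genes are transcribed together was not examined, so the peak cannot be given to rpac-19 or tbg-1 alone. The peak scored 11.4 in replicate 1, at rank 3207, and 31.0 in replicate 2, at rank 800. Of the 4 tubulin peaks it was the one outside the 2570 highest of a replicate.

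The sequence around the tbb-1 and tbg-1 summits was richer in CpG dinucleotides than that of most peaks. Windows of 101 bases centred on each summit are given below with CpG in capitals, on the plus strand of ce11. The third line is tbb-2, the partner isotype of tbb-1 without an IDR peak, in a window centred 200 bp upstream of its start. The coordinates are chrIII:10742608-10742708 for tbb-1, chrIII:9629949-9630049 for tbg-1 and chrIII:4017777-4017877 for tbb-2.
tbb-1: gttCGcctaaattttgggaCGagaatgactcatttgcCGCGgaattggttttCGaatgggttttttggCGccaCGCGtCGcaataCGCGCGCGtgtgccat
tbg-1: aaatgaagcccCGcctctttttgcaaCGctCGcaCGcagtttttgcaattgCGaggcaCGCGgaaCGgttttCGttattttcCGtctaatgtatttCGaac
tbb-2 upstream: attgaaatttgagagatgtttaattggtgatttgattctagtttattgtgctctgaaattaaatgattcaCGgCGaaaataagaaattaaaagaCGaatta

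CpG occurred 13 times in the tbb-1 window and 11 times in the tbg-1 window, where the median of all IDR summits was 5. The tba-2 windows had 8 in the intron and 4 upstream. The tbg-1 count of 11, the lower of the tbb-1 and tbg-1 counts, was taken as a cut-off after seeing the data. Of all IDR summits 5.02% had at least 11, and of windows centred 200 bp upstream of each protein-coding gene 0.766%. Since the cut-off came from these peaks, the shares are a description and no test of them. GC content was 52.5% at tbb-1, 47.5% at tbg-1, and 51.5% and 41.6% at the intronic and upstream tba-2 summits, with medians of 45.5% over all IDR summits and 33.7% over promoter windows. The tbb-2 window had 26.7% GC and 3 CpG, but it is not centred on a summit. In windows placed the same way, 200 bp upstream, tbb-1 had 47.5% GC and 9 CpG, tbg-1 29.7% and 2, and tba-2 36.6% and 3. In such windows tbg-1 and tba-2 thus had no more CpG than tbb-2.

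Motifs were searched on both strands, and none of the 5 was in any window at a tubulin IDR summit. The GAGA repeat GAGAGA was in 26.8% of all IDR summit windows and in 7.47% of promoter windows of the same length. TTTATG, the posterior Hox hexamer, occurred in 11.3% of IDR summit windows and 9.96% of promoter windows. The E-box CAGCTG was in 4.75% and 1.70% of them, and the Meis-type hexamer TGACAG in 4.09% and 3.27%. The TATA hexamer TATAAA was in 4.75% of IDR summit windows and 13.1% of promoter windows. These sets of windows also differ in median GC content, 45.5% and 33.7%, and its part in the motif shares was not tested. The tbb-2 window shown above does hold GAGAGA, but it is not centred on a summit. In windows placed the same way, 200 bp upstream, tba-2 and tba-4 also held GAGAGA, while tbb-1 and tbg-1 did not. That window of tba-2 lies within its upstream IDR peak. An absent match says only that these letters are not in the window searched.

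The alpha-tubulin gene tba-1 (WBGene00006528), at 9785781 to 9787624 on the minus strand of chromosome I, fell just outside the rule. An IDR peak at 9788484 to 9788847, with a score of 86.9 and rank 99, had its summit at -1042 bp, where tbg-1, the farthest member inside, had -845 bp. That summit was at -59 bp from the start of cox-5B (WBGene00000371), a cytochrome c oxidase subunit gene that runs the other way. The starts of tba-1 and cox-5B are 1101 bp apart. The overlapping peaks scored 42.8 in replicate 1, at rank 68, and 42.7 in replicate 2, at rank 244, so both replicates hold it high. The summit of replicate 2 lay at -956 bp from tba-1, inside the window. Nearer to tba-1, a weaker pooled peak at -192 bp scored 23.0 and ranked 4371. It had counterparts of 10.2 in replicate 1 and 14.0 in replicate 2.

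**Figure D3:**
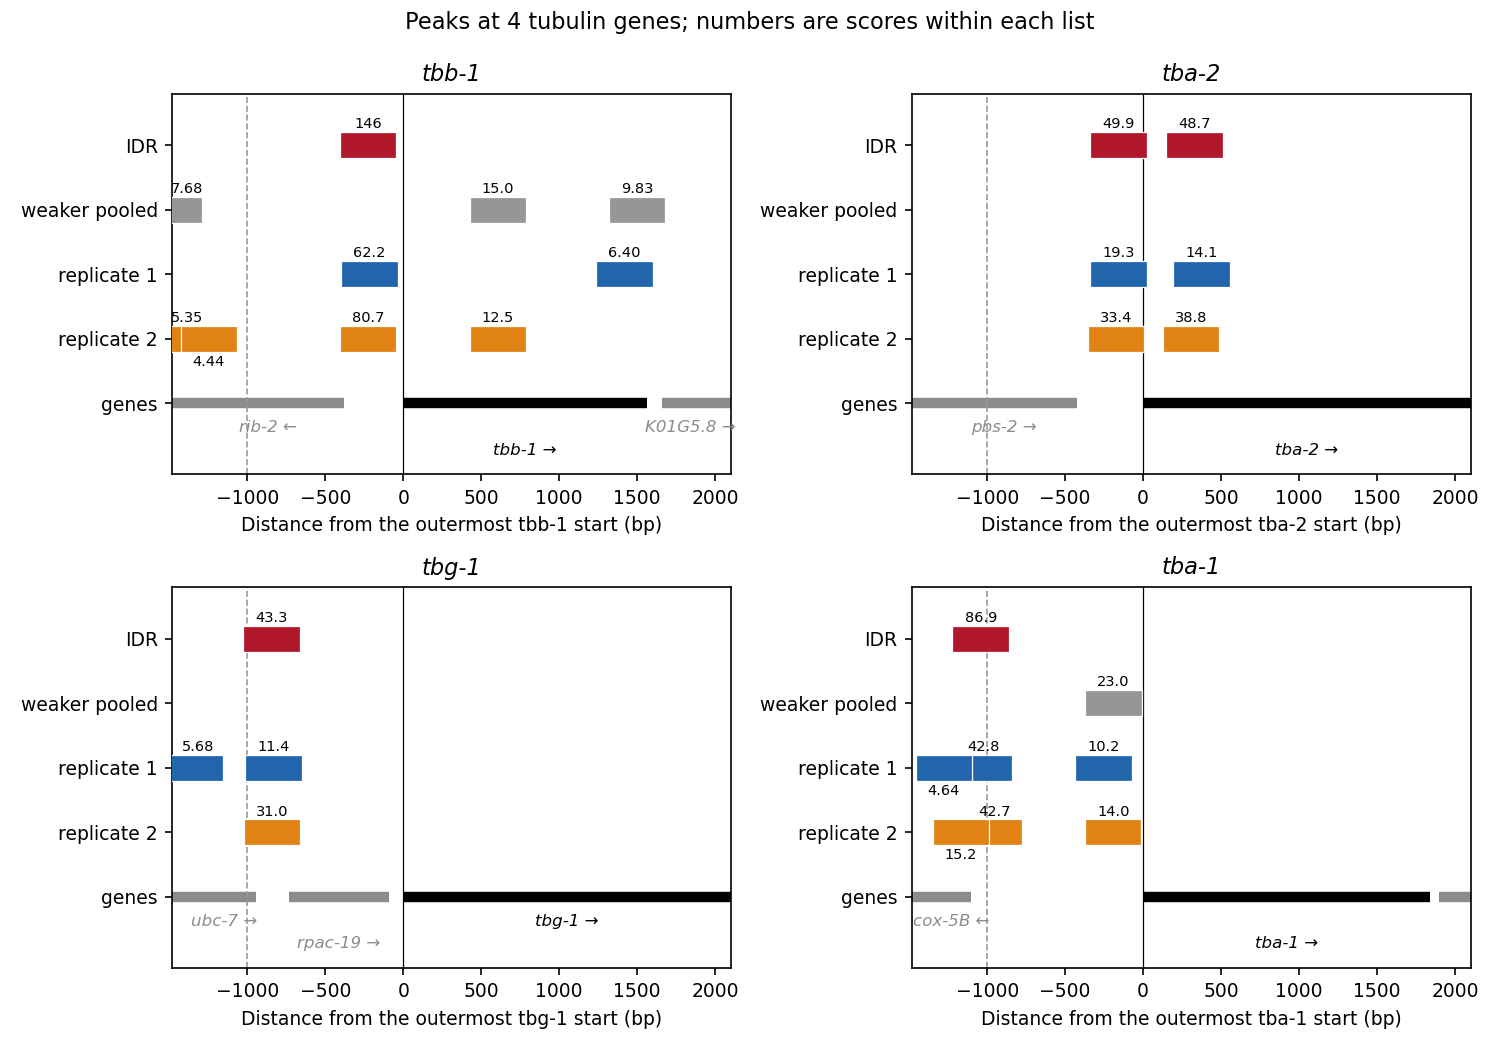
Peaks of each list along 4 tubulin genes, with the distance from the outermost start in bp on the x axis, the lists and the protein-coding genes on the y axis, and the score beside each peak. The dashed line marks 1000 bp upstream, arrows give the direction of transcription, and the tbb-1 peak lies between tbb-1 and rib-2 while the tbg-1 peak lies beyond rpac-19.

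The remaining members had weaker pooled peaks or none. At tba-9 (WBGene00006535, chromosome X, 3252800 to 3256269) the highest weaker pooled peak of the 10 genes scored 26.4, rank 3441, against 30.8 for the lowest IDR peak. It lay in an exon 3172 bp into the gene. Its overlapping peak ranked 2348 in replicate 1 with a score of 13.3, and 6343 in replicate 2 with 12.1. Others of 11.2 and 6.62 lay 16 and 1753 bp from the start. At tba-4 (WBGene00006530, chromosome II, 10918706 to 10920211) the one pooled peak scored 10.7, at -428 bp. It had a replicate 1 peak of 6.48 and no replicate 2 peak in the window.

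For tbb-2 (WBGene00006537, chromosome III, 4015910 to 4017627) the pooled peaks scored 9.04, in an intron, and 8.81, at -654 bp. The second is an example of replicates that differ, since the peak of replicate 1 there scored 12.4 and ranked 2695, while replicate 2 had none at that position. Its 1 peak in the tbb-2 window scored 5.64 and lay in the intron. No pooled peak lay in the windows of tba-5 (WBGene00006531, chromosome I, 8353382 to 8358273), tba-6 (WBGene00006532, chromosome I, 8994002 to 8998604) or tbb-4 (WBGene00006538, chromosome X, 9434452 to 9436893). Replicate 1 alone had 1 peak in tba-5, with a score of 2.46, and 3 in tba-6, with scores from 3.61 to 3.91, where the list's median was 4.28. Both of the higher tba-6 peaks are also in the window of F32H2.7. The tbb-4 window had no peak in any list. The nearest IDR summits were at -23578 bp from the start of tba-5, 64028 bp from that of tba-6 and -4786 bp from that of tbb-4.

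Counting peaks of any score, 7 of the 10 tubulin genes had a pooled peak, against 53.1% of protein-coding genes. In the list of replicate 1 it was 9 of 10, against 59.2%, and in that of replicate 2 it was 6 of 10, against 54.3%. The highest pooled score per gene had a median of 26.4 over the 7 tubulin genes with a peak and of 14.0 over 10615 protein-coding genes with one.

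The count of tubulin genes was also taken by other rules. It was 3 with the window upstream only, where 8.65% of protein-coding genes had a peak, and 2 with 500 bp upstream (tbg-1 dropped out), where 9.08% did. With 2000 bp upstream it was 4, against 13.1%, tba-1 being added. The 1285 highest IDR peaks gave 3 tubulin genes, against 6.01%. Any overlap of an IDR peak with the window gave 4, against 11.8%. Given to the nearest start, IDR summits left 1 tubulin gene, tba-2, against 10.7%. The 2570 highest peaks of replicate 1 alone gave 3 (tba-2, tba-9 and tbb-1), against 9.82%, and those of replicate 2 alone gave 4 (tba-1 added), against 10.7%.

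In the replicate lists the 4 tubulin IDR peaks were each matched by 1 peak that covered at least 50% of them. A match does not set them apart, since nearly all IDR peaks had an overlapping replicate peak. By any overlap the share was 99.1% in replicate 1 and 99.8% in replicate 2. Of the tubulin genes, 2 (tba-2 and tbb-1) had a peak that also overlapped the 2570 highest of each replicate, against 6.16% of protein-coding genes. Over all IDR peaks, 53.3% met that standard. The best overlapping peaks of IDR peaks had a median rank of 1452 in replicate 1 and 1311 in replicate 2. All 4 tubulin peaks ranked above the median in replicate 2, while 2 of them, the intronic tba-2 peak and the tbg-1 peak, were below it in replicate 1.

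**Figure D4:**
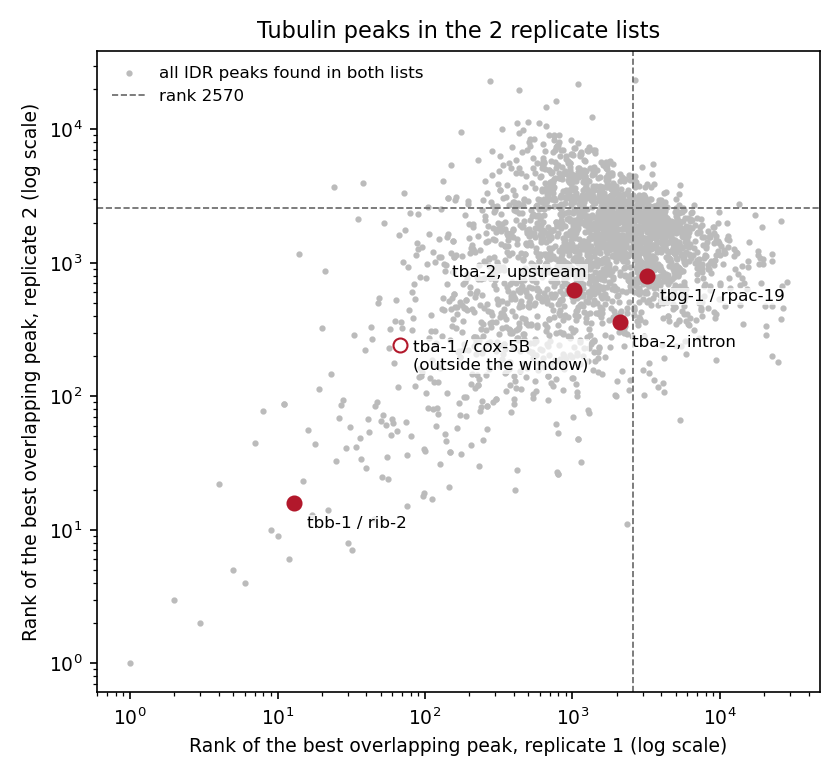
Rank of the best overlapping peak of replicate 1 (x axis) and replicate 2 (y axis), both log scales, for IDR peaks found in both lists (grey) and for the tubulin peaks (red). Dashed lines mark rank 2570, and the tbg-1 peak is the tubulin peak beyond that line in replicate 1, at rank 3207.

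Some of these peaks were shared between genes. Of the 4, 2 lay in the window of another protein-coding gene, rib-2 or rpac-19. Over all 1871 IDR peaks in a protein-coding window, 26.2% lay in windows of 2 or more genes. With 4 peaks the tubulin genes cannot be set apart from that share. Tubulin coding sequences resemble each other, so reads could be placed at the wrong copy. At the BLAST cut-off used, the IDR peak sequences of tbb-1, tbg-1 and the tba-2 intron had no other match in the genome. The upstream tba-2 peak had 1 match of 28 bp among its 364 bp. All 4 summits lie outside exons, so the search says little about reads from coding sequence. Weaker pooled peaks with summits in tubulin exons, as at tba-9 and tbb-1, were not searched.

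None of the 6 other tubulin genes had an IDR peak, where 10.6% of all protein-coding genes had one. So few genes cannot set this list apart from that share. A pooled peak of any score was present at 5 of the 6, against 53.1% of protein-coding genes. The highest weaker pooled peaks were those of mec-7 (27.1, at -162 bp), ben-1 (23.1, in an intron), mec-12 (18.2, at -66 bp), tba-7 (14.4, in an intron) and tbb-6 (6.56, in a 5′ UTR exon). The gene tba-8 had no pooled peak. The proteins of mec-7 and mec-12 form the large microtubules of touch receptor neurons, and ben-1 encodes the beta-tubulin through which benzimidazole drugs act. At mec-7 the overlapping peaks scored 6.94 in replicate 1 and 18.6 in replicate 2.

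Genes that act on tubulin were counted by the same rule, beside the 10.6% of all protein-coding genes. Of the 8 genes of CCT, the cytosolic chaperonin that folds tubulin and actin, 5 had an IDR peak: cct-1 (101), cct-6 (92.0), cct-8 (70.9), cct-7 (44.4) and cct-5 (33.6 and 32.9). The cct-1 summit also lies in the window of mig-5, a Dishevelled gene, and the other upstream summits of this list are shared as well, with alh-9, Y55F3AR.2, T10B5.4 and F25F2.1. In cct-5 the summit scored 33.6 is in an intron. That peak ranked 1868 in replicate 1 and 3023 in replicate 2, and the cct-5 peak scored 32.9 ranked 3619 and 1745. The peaks of cct-1, cct-6, cct-7 and cct-8 were among the 2570 highest of each replicate.

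Among 10 genes of the gamma-tubulin complex and centrosome, 2 had a peak, sas-6 (62.4) and sas-4 (46.4), both needed for centriole assembly and both with summits shared with a neighbouring gene. The gamma-tubulin partner genes gip-1, gip-2 and mzt-1 had none. Motor genes had 4 of 12: klc-1, a kinesin light chain gene (82.0, in a window shared with let-70), dli-1, a dynein light intermediate chain gene (53.1, in a window shared with tin-9.2 and exos-4.1), the kinesin-II gene klp-20 (41.0, in an intron) and lis-1 (32.1). Microtubule-associated and severing protein genes had 3 of 13: cls-2, a CLASP gene (67.3, at -999 bp, in a window shared with R107.5), the spastin gene spas-1 (47.8) and the minus-end binding protein gene ptrn-1 (31.2). The ptrn-1 peak ranked 18017 in replicate 1 and 1144 in replicate 2. In the same order, the klp-20 peak ranked 8354 and 461, that of sas-6 4116 and 125, and that of lis-1 3794 and 1772. The peaks of ptrn-1, klp-20, sas-6 and lis-1 were thus outside the 2570 highest of replicate 1. Those of sas-4, cls-2, spas-1, klc-1 and dli-1 were among the 2570 highest of each replicate. None of the 10 tubulin modification genes, which add or remove acetyl and glutamyl groups, had an IDR peak.

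**Figure D5:**
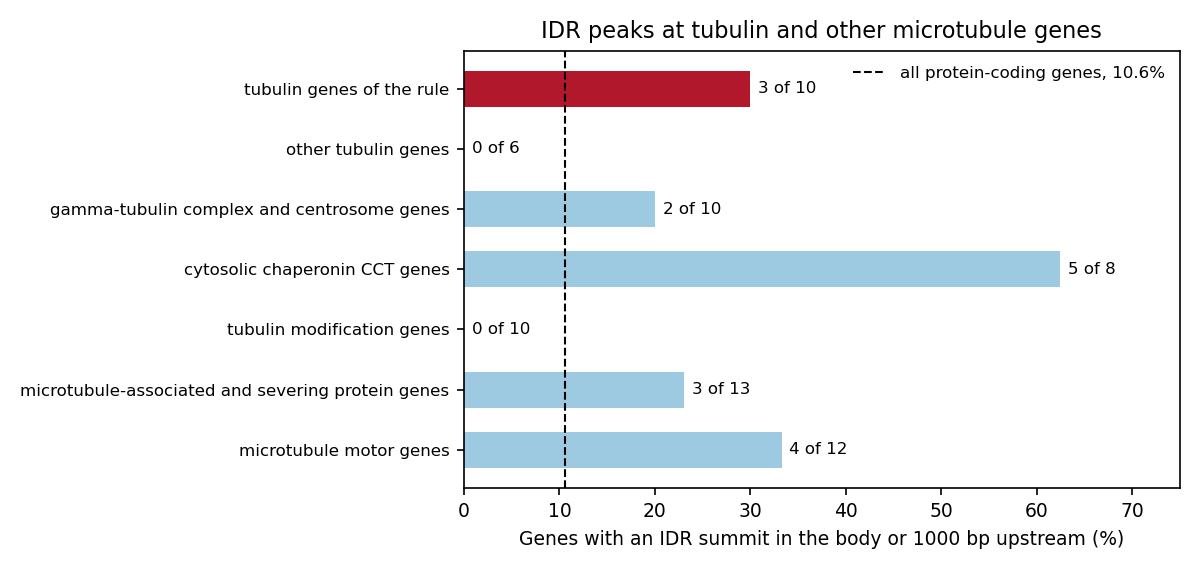
Percent of the genes in each list that have an IDR peak under the summit rule (x axis) for the tubulin genes (red) and 6 other lists of microtubule genes (blue), with counts beside the bars. The dashed line is the 10.6% of all protein-coding genes, and the 2 lists with 0 genes are the other tubulin genes and the tubulin modification genes.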

How the data were processed

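The authors deposited narrowPeak lists of 2 replicates, of both together and after IDR, with a control experiment named in the labels and not analysed here. Per the labels the fragments ranged from 150 to 350 bp. The deposited score of each peak has no stated scale. The deposited −log10 q-value was at its maximum of 3.54 in 67.3% of IDR peaks and was not used for ranking. Which aligner, peak caller and IDR cut-off were used is not given in the sources used here. Instrument models are given for 1 replicate only, so no sequencing batch could be assigned.

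Summits were assigned with Ensembl release 115 (WBcel235), using all transcript starts of a gene. Peaks matched between lists when they overlapped by at least 1 bp. In a test on simulated data the assignment recovered summits planted at the outermost start or up to 1000 bp upstream. Summits within gene bodies or at other starts were not planted, so those parts of the rule were not tested. Sequences are from the RefSeq genome of WBcel235. Python 3.11.15, pandas 2.3.3 and BLAST+ 2.17.0 were used. The tubulin genes, the other gene lists, the motifs and the named genes (all members, genes that share their summits, listed genes with an IDR peak, and the 2 upstream peaks on each side of the highest tubulin peak) were chosen with earlier results of these data known. CpG counts, GC content and genome matches were added after seeing the data. The listed severing protein symbol fign-1 had no match in the annotation and was left out. No test was run.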

Additional observations from a re-analysis of the deposited data

How the results depend on the processing

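With 500 or 2000 bp upstream, 2 or 4 tubulin genes had an IDR peak, tbg-1 leaving and tba-1 entering. When each summit went to its nearest start, 1 gene was left, tba-2, with 2 peaks, since the tbb-1 and tbg-1 summits lie nearer to rib-2 and rpac-19. The window without gene bodies and the 1285 highest IDR peaks each gave 3 genes and 4 peaks. Leaving out a replicate gave 3 to 4 genes, 4 to 5 peaks and 9.82% to 10.7% of all protein-coding genes. Without replicate 1 tba-1 entered, and without replicate 2 tba-9 entered and tbg-1 left. The share of all protein-coding genes was 6.01% for the 1285 highest IDR peaks and 6.16% for IDR peaks overlapping the 2570 highest of each replicate. Counting any overlap with the window, chosen after seeing the data, gave 4 genes. The median highest pooled score was 24.7 over 6 genes with 500 bp, 34.9 over 8 genes with 2000 bp and 33.2 over 6 genes upstream only. With 2000 bp the highest score was 86.9 for tba-1 and 25.0 for tbb-2. No paired analysis was possible because there is 1 group.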

Other observations

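Upstream sequence of the tubulin genes varied in composition. In windows of 101 bp centred 200 bp upstream of the outermost start, GC content ran from 25.7% at tba-9 to 62.4% at tbb-4. The tbb-4 window, which had no peak in any list, held 10 CpG dinucleotides and 1 CAGCTG, while that of tbb-1 held 9 CpG and had 47.5% GC. GAGAGA was present in the windows of tba-2, tba-4 and tbb-2, of which tba-2 alone had an IDR peak. The tba-1 and cox-5B summit, outside the tubulin window, had 13 CpG and 53.5% GC, the same number of CpG as the tbb-1 and rib-2 summit.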
